A study of Mus musculus with 12 samples.

Results

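The Fos and Jun family comprises the 7 genes Fos, Fosb, Fosl1, Fosl2, Jun, Junb and Jund, chosen by name from the 41091 gene IDs of the count tables, and all 7 had counts. Total RNA was sequenced from acute hippocampal mini-slices, from which the dentate gyrus had been trimmed, of male wild-type C57BL/6 mice aged 2-3 months. The 4 groups of 3 libraries each were slices with chemical long-term potentiation (LTP) and vehicle-treated control slices, frozen 1 hr or 3 hr after treatment. LTP slices received 50 uM forskolin, an activator of adenylyl cyclase, over 5 min and then forskolin with 30 mM KCl and 10 mM calcium over a further 5 min, while control slices received 0.2% DMSO over 10 min. Within a time point, 1 animal gave 1 LTP and 1 control library, so replicate numbers pair these libraries. According to the study's methods, libraries were made only from samples in which Arc and the short isoform of Homer1 had risen by qPCR after LTP induction. The long isoform of Homer1 and Hprt had to be unaltered. The LTP slices were thus selected on transcripts of the same early response.

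Fos and Jun proteins are basic leucine zipper (bZIP) transcription factors that bind DNA in pairs as the AP-1 complex. Jun proteins can pair with each other or with a Fos protein, while Fos proteins need a partner, usually a Jun protein. Fos, Fosb and Junb are classic immediate early genes that neurons transcribe within minutes of strong synaptic activity, without new protein synthesis, in the case of Fos through CREB bound at cyclic AMP response elements (CRE) and serum response factor bound at CArG boxes. Bulk slices do not separate cell types, and a change in the number of cells of a type and a change in the RNA per cell cannot be told apart here.

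Promoter windows from 250 bases before to 50 after the transcription start were taken from RefSeq (build GRCm38.p6), which held entries for 6 of the 7 members, all but Fosl1. The TGACG core of the CRE, searched on both strands, was present in the windows of Fos, Fosb and Junb and not in that of Jun. The RefSeq start of Fosl2 lies 671 bases and that of Jund 1210 bases from the gene start in the GENCODE annotation used below, so their windows, which held no core, do not cover that start and are left out of what follows. Of all 32851 windows in the table, 20.8% held this core. The palindromic CRE TGACGTCA, which contains the core on both strands, was in no window of Fos, Fosb, Junb or Jun and in 1.79% of all windows. The AP-1 site, TGACTCA or its reverse complement TGAGTCA, was likewise in no window of these genes and in 5.2% of all, and the CArG box in no window of theirs and in 1.63% of all. A match is a description of letters and not evidence of binding. Sequence farther than 250 bases before the start was not searched. The absence of a CArG box or other motif therefore holds for these windows only and not for the whole promoter. The 250 bases before the start are shown for the 3 members whose window held the core, which is in capitals, and for Jun, the founding Jun member, whose window held none. They lie at chr12:85473640-85473889 on the plus strand for Fos, and on the minus strand at chr7:19310046-19310295 for Fosb, chr8:84978749-84978998 for Junb and chr4:95052223-95052472 for Jun.
Fos: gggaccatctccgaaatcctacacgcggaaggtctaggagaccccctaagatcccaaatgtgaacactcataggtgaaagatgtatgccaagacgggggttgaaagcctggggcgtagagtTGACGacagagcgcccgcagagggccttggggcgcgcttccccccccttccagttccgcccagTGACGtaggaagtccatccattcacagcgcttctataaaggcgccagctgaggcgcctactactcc
Fosb: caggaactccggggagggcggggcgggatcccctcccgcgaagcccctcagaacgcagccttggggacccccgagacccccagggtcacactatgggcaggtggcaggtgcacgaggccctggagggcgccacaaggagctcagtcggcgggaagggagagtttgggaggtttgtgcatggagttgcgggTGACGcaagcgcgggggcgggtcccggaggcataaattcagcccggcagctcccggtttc
Junb: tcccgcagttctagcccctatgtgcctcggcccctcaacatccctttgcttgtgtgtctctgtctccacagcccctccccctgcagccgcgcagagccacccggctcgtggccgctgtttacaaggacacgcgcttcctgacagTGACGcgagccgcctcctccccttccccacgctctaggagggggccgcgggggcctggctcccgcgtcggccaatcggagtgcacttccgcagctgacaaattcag
Jun: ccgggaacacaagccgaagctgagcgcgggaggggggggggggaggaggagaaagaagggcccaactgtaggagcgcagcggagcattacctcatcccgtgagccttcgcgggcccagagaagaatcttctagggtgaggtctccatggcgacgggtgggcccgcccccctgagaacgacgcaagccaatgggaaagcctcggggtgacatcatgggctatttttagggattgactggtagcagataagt

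Fos held the core at 129 to 125 and again at 66 to 62 bases before its start, Fosb at 60 to 56 and Junb at 106 to 102 bases before the start. In these 3 genes the core lay on the strand of the gene.

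Library totals ran from 37118382 to 50815001 counts, so 3 counts corresponded to at most 0.0808 CPM (counts scaled to library size). All CPM values below are scaled by TMM, the trimmed mean of M values of edgeR. 1 hr control replicate 2 was set aside by the study as an outlier. It was left out of the main tests here, and its values are given with those of the other libraries. Replicates of a group differed by more than counting error, with a chi-square per degree of freedom between 9.49 and 85.6. The highest value was between 3 hr LTP replicates 2 and 3, which for each of the 7 members were also the lowest and the highest library of their group, as in 25.6% of all genes. 1 hr control replicate 2 was the highest 1 hr control in all 7 members and in 38.7% of all genes. Across the 4 groups, deviations from the group mean were positively correlated in all 21 pairs of members (Pearson r from 0.285 to 0.895 over 12 libraries), as a description of libraries that share depth, scaling and base composition.

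The first comparison asked which members changed 1 hr after LTP induction. A call required an adjusted p below 0.1 together with a change of more than 1.2-fold, in the quasi-likelihood F test of edgeR with Benjamini-Hochberg adjustment over all genes tested. Of the 7 members, Fos, Fosb, Fosl2, Jun and Junb were called higher, Fosl1 and Jund were not called, and 0 were called lower. For comparison, 0.778% of the 17736 genes tested were called higher and 0.0113% lower. In 6 of the 7 members every LTP library lay above both fitted controls, the exception being Fosl1, against 10.6% of all genes tested. With the third control included, every LTP library of Fos, Fosb, Fosl2, Jun and Junb lay above every control, against 6.69% of all genes tested.

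The same question was put 3 hr after induction. Fos, Fosb, Fosl2 and Junb were called higher, Fosl1, Jun and Jund were not called, and 0 were called lower. Here 5.07% of the 17508 genes tested were called higher and 1.53% lower. Every LTP library lay above every control library in these same 4 members, against 12.9% of all genes tested. Over the 7 members the median log2 fold change was 0.61 at 1 hr and 0.72 at 3 hr, beside medians of -0.001 and -0.002 over all genes tested. Member by member, the estimated effect was smaller at 3 hr in Fos, Fosb, Jun, Junb and Jund and larger in Fosl1 and Fosl2, and the median of the differences was -0.24, beside 0.005 over all genes.

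**Figure D1:**
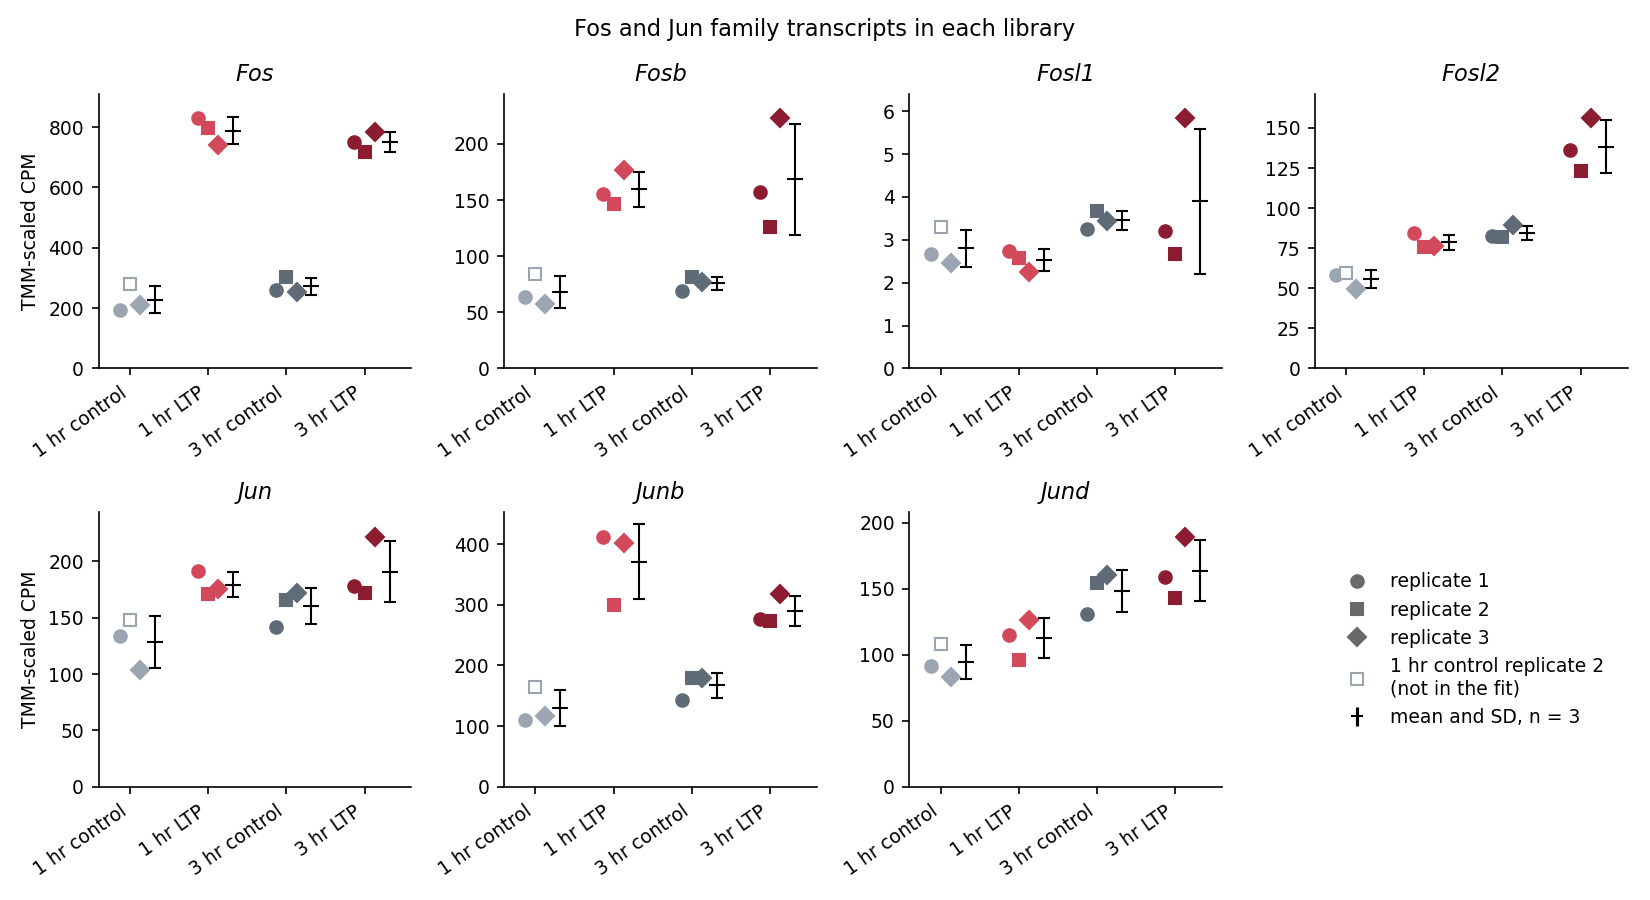
TMM-scaled CPM (vertical axis from 0) of each member in each library, with 1 panel per gene, the 4 groups on the horizontal axis, marker shapes for replicates 1 to 3 and black bars for mean and SD (n = 3). The Fos, Fosb, Fosl2 and Junb libraries of LTP slices sit above those of the controls of their time point, and the open square (1 hr control replicate 2) is the highest 1 hr control in all 7 panels.

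Fos, the founding member and a widely used marker of recent neuronal activity, gave the highest level of the family in every group, per length of exon and of coding sequence alike. It lies at chromosome 12:85473890-85477273 (GRCm38, plus strand), and its exons overlap no other annotated gene. Replicates 1, 2 and 3 had 193, 279 and 212 CPM in 1 hr controls and 829, 798 and 739 CPM in 1 hr LTP slices. At 3 hr the controls had 259.6, 304 and 253 CPM and the LTP slices 750.2, 719 and 783 CPM. Controls and LTP libraries were far apart at both times, with the lowest LTP library above every control. Fos rose 3.93-fold at 1 hr (log2 fold change 1.97, SE 0.0773, 95% interval 1.81 to 2.14, edgeR adjusted p = 1.67e-09) and 2.78-fold at 3 hr (1.48, SE 0.0828, 1.29 to 1.66, adjusted p = 0.000109). By size of the estimated rise it stood at rank 51 of 17736 genes at 1 hr and rank 36 of 17508 at 3 hr. The LTP groups at 3 hr and 1 hr differed by -0.09 (edgeR adjusted p = 0.393), within their spread. The 3 hr controls were above the fitted 1 hr controls by 0.40 on the log2 scale (adjusted p = 0.0044). This last difference was 0.26 and not called with all 12 libraries (adjusted p = 0.106).

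Fosb encodes FosB and, from the same gene by splicing, the truncated and unusually stable ΔFosB, which gene counts cannot tell apart. It lies at chromosome 7:19302696-19310051 (minus strand) with no exon shared with another gene. The 1 hr controls had 63.3, 84.0 and 57.3 CPM and the 1 hr LTP slices 155, 147 and 177 CPM. Values at 3 hr were 69.4, 81.0 and 76.7 CPM in controls and 157.5, 126 and 223 CPM in LTP slices. The groups did not overlap at either time, and the spread of the 3 hr LTP libraries (SD 49.4 CPM, mean 169) was wider than that at 1 hr (SD 15.6, mean 159.6). Fosb rose 2.67-fold at 1 hr (log2 fold change 1.415, SE 0.0883, 95% interval 1.23 to 1.60, edgeR adjusted p = 3.02e-07) and 2.25-fold at 3 hr (1.17, SE 0.178, 0.76 to 1.57, adjusted p = 0.0125). Neither the 2 LTP groups (0.06, edgeR adjusted p = 0.785) nor the 2 control groups (0.30, adjusted p = 0.209) were called different from each other. The lincRNA Gm26802, a close neighbor of Fosb on the same strand, was not tested at 1 hr for low counts. At 3 hr it had 0.108, 0.152 and 0.156 CPM in controls and 0.477, 0.505 and 0.765 CPM in LTP slices (log2 fold change 2.04, edgeR adjusted p = 0.0168).

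Fosl2, which encodes Fra-2, a Fos protein without the strong activation domain of Fos, was the other Fos gene called at both times. It lies at chromosome 5:32135801-32157842 (plus strand) with no shared exon. The 1 hr controls had 58.2, 59.3 and 49.3 CPM and the 1 hr LTP slices 84.25, 75.7 and 76.2 CPM. The 3 hr controls had 82.3, 81.8 and 89.4 CPM and the 3 hr LTP slices 136, 123 and 156 CPM. LTP and control libraries were apart at each time, but the 3 hr controls overlapped the 1 hr LTP slices. The LTP effect was 0.56 on the log2 scale at 1 hr (SE 0.0871, 95% interval 0.38 to 0.75, edgeR adjusted p = 0.00437) and 0.72 at 3 hr (SE 0.0897, 0.52 to 0.93, adjusted p = 0.00544). The 1 hr call was lost without 1 hr control replicate 3 (0.445, edgeR adjusted p = 0.18). Unlike Fos and Fosb, Fosl2 was called higher at 3 hr than at 1 hr in both the controls (0.625, edgeR adjusted p = 7e-04) and the LTP slices (0.795, adjusted p = 4.74e-05), though these estimates were not tested against those of the other genes.

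Fosl1, which encodes Fra-1, had the lowest level of the 7 members and was not called after LTP induction at either time. The 1 hr controls had 2.66, 3.29 and 2.46 CPM and the 1 hr LTP slices 2.745, 2.58 and 2.26 CPM. At 3 hr the controls had 3.24, 3.68 and 3.44 CPM and the LTP slices 3.20, 2.66 and 5.83 CPM. The groups overlapped at both times, and 3 hr LTP replicate 3 stood above every other library. The LTP effect was -0.008 on the log2 scale at 1 hr (95% interval -0.43 to 0.42, edgeR adjusted p = 0.999) and 0.175 at 3 hr (-0.41 to 0.76, adjusted p = 0.751, and -0.23 without 3 hr LTP replicate 3). These intervals leave room for a moderate change in either direction. Fosl1 lies at chromosome 19:5447547-5455946 (plus strand), and 57.2% of its exonic bases also belong to Ccdc85b on the opposite strand. The sources used here do not say if reads were counted by strand, and the Fosl1 values are therefore uncertain. Ccdc85b had 20.2 to 33.0 CPM in 1 hr controls, 14.5 to 21.2 in 1 hr LTP slices, 39.2 to 46.95 in 3 hr controls and 18.3 to 42.3 in 3 hr LTP slices.

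Junb, an immediate early Jun protein that can hold back the activity of c-Jun at some promoters, had the largest estimated difference between the LTP effects at the 2 times. It lies at chromosome 8:84974484-84978718 (minus strand), with 7.5% of its exonic bases shared with Prdx2 on the opposite strand. The 1 hr controls had 109.8, 164 and 116 CPM and the 1 hr LTP slices 412, 300.3 and 402 CPM. At 3 hr the controls had 144, 179 and 179.5 CPM and the LTP slices 277, 274 and 317 CPM. LTP libraries were above control libraries at each time, and 2 of the 3 1 hr LTP libraries were above all 3 hr LTP libraries. Junb rose 3.305-fold at 1 hr (log2 fold change 1.725, SE 0.112, 95% interval 1.48 to 1.97, edgeR adjusted p = 4.54e-07) and 1.74-fold at 3 hr (0.80, SE 0.0984, 0.58 to 1.03, adjusted p = 0.00543). Prdx2, its overlapping neighbor, was not called at either time (-0.135 and -0.21, edgeR adjusted p = 0.795 and 0.131).

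Jun, which encodes c-Jun, the Jun protein that activates transcription most strongly and the target of the JNK kinases, was called at 1 hr only. It is a single-exon gene at chromosome 4:95049034-95052222 (minus strand), with 7.3% of its exonic bases shared with the antisense gene Junos. The 1 hr controls had 134, 148 and 103 CPM and the 1 hr LTP slices 191.5, 171 and 175 CPM. Controls at 3 hr had 142, 166 and 172 CPM and LTP slices 178, 172 and 221 CPM. The groups were separate at 1 hr, and at 3 hr the highest control and the lowest LTP library met. The LTP effect was 0.61 on the log2 scale at 1 hr (SE 0.0966, 95% interval 0.40 to 0.81, edgeR adjusted p = 0.00544) and 0.26 at 3 hr (SE 0.109, 0.02 to 0.51, adjusted p = 0.216). With the animal as a replicate block the 3 hr effect was 0.26 (SE 0.07, edgeR adjusted p = 0.0679). This passes the p threshold and falls just under the 1.2-fold minimum. Without 3 hr LTP replicate 2 the 3 hr effect was called (0.34, edgeR adjusted p = 0.0694), beside 2170 of 17769 genes. The 1 hr call was lost without 1 hr control replicate 3 (0.43, edgeR adjusted p = 0.149). That Jun was called at 1 hr and not at 3 hr does not show that the effects differ: their difference was -0.34 (95% interval -0.69 to 0.02, edgeR adjusted p = 0.786).

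Jund, the Jun gene known for steady expression in resting cells, was not called after LTP induction at either time. It is a single-exon gene at chromosome 8:70698949-70700616 (plus strand), and 52.6% of its exonic bases are shared with the antisense gene Gm11175, which itself had at most 1.345 CPM. Since the use of strand in counting is not known, the Jund values and its place in the per-length order are uncertain, as those of Fosl1 are. The 1 hr controls had 91.3, 108.5 and 83.2 CPM and the 1 hr LTP slices 115, 96.2 and 127 CPM. Controls at 3 hr had 131, 155 and 160.4 CPM and the LTP slices 159, 143 and 189 CPM. LTP and control libraries overlapped at 3 hr, while at 1 hr they overlapped only through control replicate 2. The LTP effect was 0.38 on the log2 scale at 1 hr (SE 0.0977, 95% interval 0.17 to 0.59, edgeR adjusted p = 0.161) and 0.15 at 3 hr (SE 0.112, -0.10 to 0.41, adjusted p = 0.479). The 1 hr estimate was called with DESeq2 (0.38, adjusted p = 0.0308, beside 1.01% of all genes called). It was also called with no filter beyond 1 count (0.38, edgeR adjusted p = 0.000338, beside 347 of 26349 genes). Without 1 hr LTP replicate 2 it was called as well (0.48, edgeR adjusted p = 0.00337, beside 130 of 17451 genes). Other fits did not call it. Among them were all 6 libraries at 1 hr (0.26, edgeR adjusted p = 0.526) and the animal as a replicate block (0.26, edgeR adjusted p = 0.844). The 4-group model (0.37, edgeR adjusted p = 0.487) and limma-voom (0.37, adjusted p = 0.205) did not either.

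**Figure D2:**
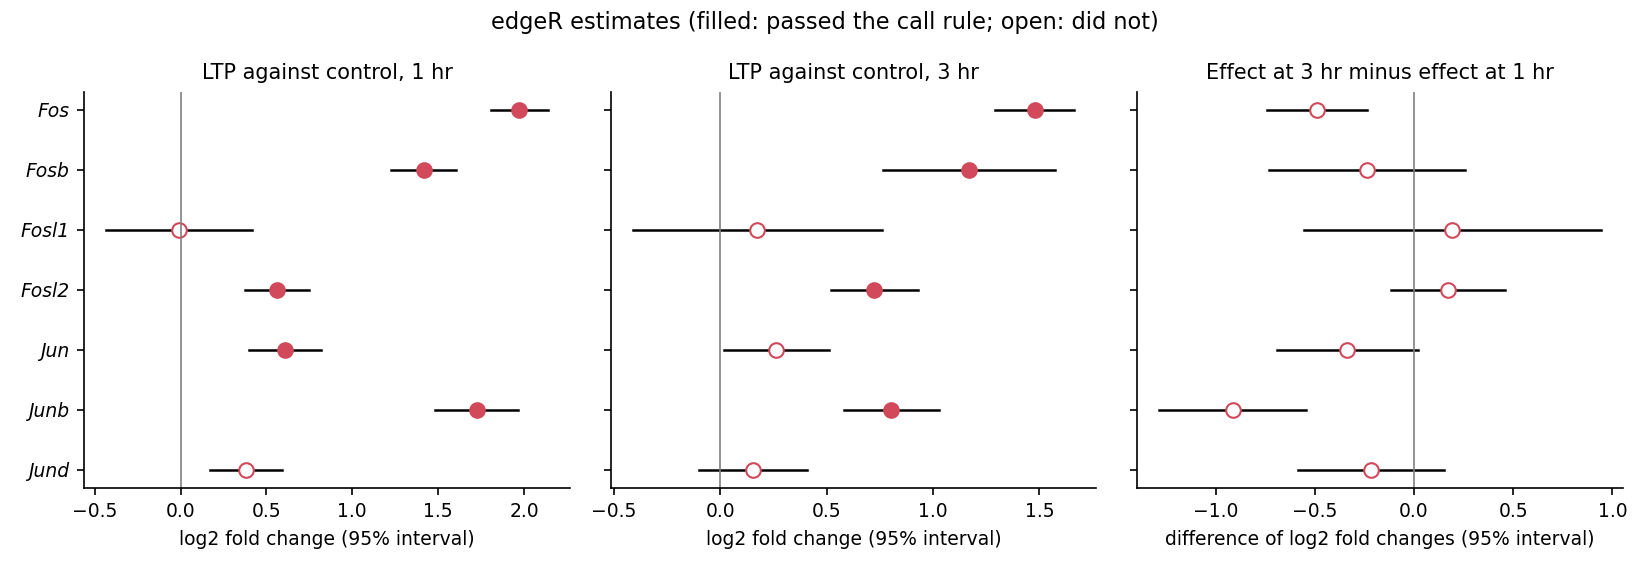
Log2 fold change of LTP against control slices at 1 hr (left) and 3 hr (middle), and the difference of these effects (right), for the 7 members, with 95% intervals from the edgeR model and filled points for calls. The rises of Fos, Fosb and Junb stand apart from those of the other members at 1 hr, and the Junb interval in the right panel, from -1.28 to -0.54, lies farthest from 0.

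Whether the LTP effect changed between 1 hr and 3 hr was tested as an interaction in a model of the 4 groups with 11 libraries. By edgeR 0 of the 7 members were called, beside 0.0592% of 18584 genes tested. At an unadjusted p under 0.05 there were 2, Junb and Fos, beside 6.59% of all genes. These 2 were also the members called by DESeq2, beside 0.312% of all genes, while limma-voom called 0 members, beside 0.0538%. For Junb the effect at 3 hr minus that at 1 hr was -0.91 on the log2 scale (SE 0.173, 95% interval -1.28 to -0.54, edgeR adjusted p = 0.128, DESeq2 adjusted p = 0.000271). The Fos difference was -0.49 (SE 0.118, 95% interval -0.74 to -0.24, edgeR adjusted p = 0.326, DESeq2 adjusted p = 0.031). With all 12 libraries, which include 1 hr control replicate 2, both differences were smaller. Junb then had -0.72 (edgeR adjusted p = 0.407) and Fos -0.33 (adjusted p = 0.728). With 11 libraries Fosl2 had a positive estimate (0.17, 95% interval -0.12 to 0.46, edgeR adjusted p = 0.916). Leaving out 1 library at a time moved the adjusted p of Junb between 0.0272 and 0.598, and it was called without 1 hr LTP replicate 2, 3 hr control replicate 1, 3 hr LTP replicate 2 or 3 hr LTP replicate 3.

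Because each animal gave slices to both treatments, the effect could also be read within animals. At 1 hr the log2 ratios of LTP to control CPM in animals 1, 2 and 3 were 2.10, 1.51 and 1.80 for Fos, and at 3 hr they were 1.53, 1.24 and 1.63. For Junb they were 1.905, 0.87 and 1.79 at 1 hr and 0.94, 0.61 and 0.82 at 3 hr. Fosb gave 1.29, 0.80 and 1.62 at 1 hr and 1.18, 0.63 and 1.54 at 3 hr. All 3 animals at both times were higher after LTP in Fos, Fosb, Fosl2, Jun and Junb, beside 5.66% of 18584 genes. In Jund animal 2 was lower at both times (-0.17 and -0.11), and in Fosl1 only 1 animal was higher at each time. Animal 2 gave the smallest ratio for each of the 7 members at 1 hr, where its control is the library set aside, and again at 3 hr, where its LTP library was the lowest of its group. Animal 2 gave the smallest ratio at both times in 20.8% of all genes. Animal numbers were not taken to mean the same mouse at the 2 time points.

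**Figure D3:**
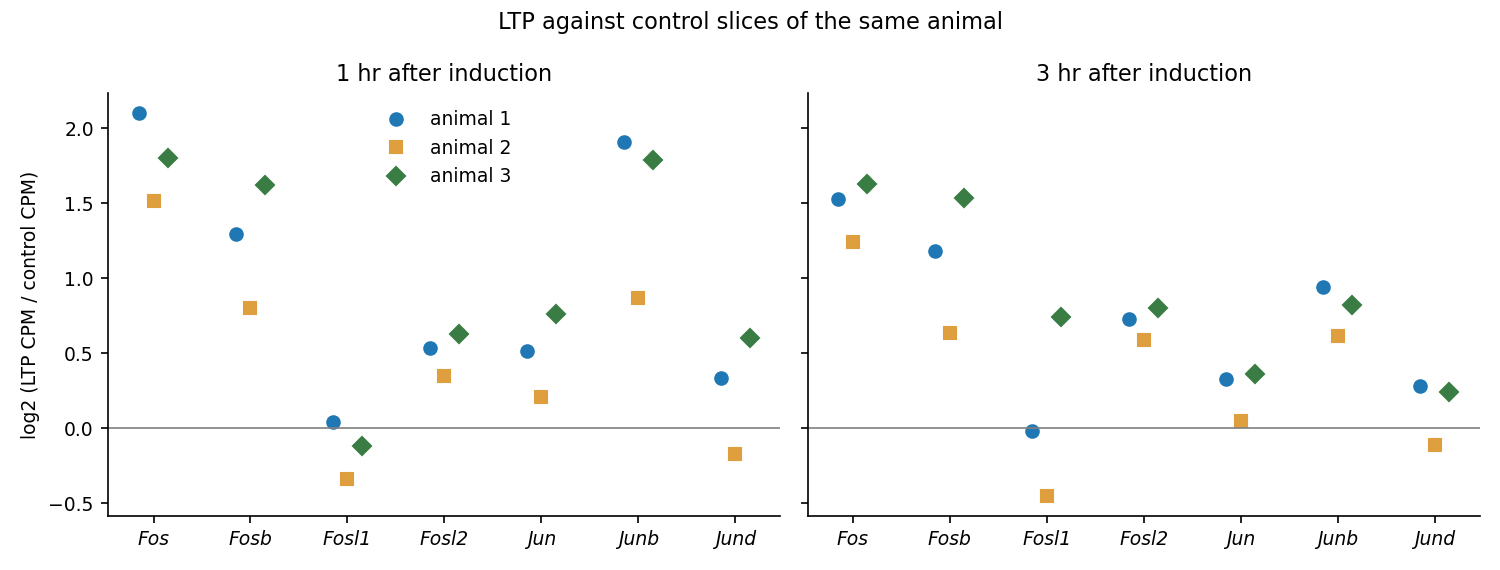
Log2 ratio of LTP to control CPM for slices of the same animal (vertical axis, pseudocount 0.1 CPM) for each member at 1 hr (left) and 3 hr (right), with 1 marker per animal. Squares (animal 2) are lowest for all 7 members in both panels, and the points of Fos, Fosb, Fosl2, Jun and Junb are all above 0.

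Levels of different members were compared per length, as CPM per kilobase of annotated exon. The study's text says that expression was measured over coding sequence, while the tables also list non-coding genes, so the length that fits the counts is uncertain and values per kilobase of coding sequence, an alternative chosen after seeing the data, follow those per exon. Coding sequence makes up 10.1% of the exonic bases of Fosl2 and 16.3% of those of Fosb, but 31.5% to 61.5% of those of Fos, Fosl1, Jun, Junb and Jund. In 1 hr controls Fos had 97.0 ± 19.4 (SD, n = 3), followed by Junb at 56.6, Jund at 56.55 and Jun at 40.2, while Fosb had 10.9, Fosl2 5.74 and Fosl1 1.38. In 1 hr LTP slices Fos reached 335, Junb 161, Jund 67.5, Jun 56.2, Fosb 25.6, Fosl2 8.13 and Fosl1 1.24. Fos thus stood at rank 40 of 14104 expressed genes per length in 1 hr LTP slices, against rank 331 in 1 hr controls. In 3 hr controls the order was Fos 116, Jund 89.1, Junb 72.7 and Jun 50.2, and in 3 hr LTP slices Fos 319, Junb 126, Jund 98.3 and Jun 59.7. Fosb had 27.0 and Fosl2 14.3 in these slices. Per kilobase of coding sequence the 3 hr LTP slices had 657 CPM of Fos, 279.6 of Junb, 189 of Jun, 166 ± 48.5 of Fosb, 159.8 ± 22.7 of Jund, 141 of Fosl2 and 4.74 of Fosl1. The place of Fosb and Fosl2 beside the Jun genes in these slices thus depends on the length used. On this scale Fosb and Jund were within their spread in 3 hr LTP slices, while Fosb was above Jund in 1 hr LTP slices (157 ± 15.3 against 109.8 ± 14.97) and below it in 3 hr controls (74.4 ± 5.77 against 145 ± 15.4). In 1 hr controls the ranges of mean ± SD overlapped (67.1 ± 13.8 against 91.9 ± 12.6). Summed over the 7 members, the level was 268 ± 47.2 CPM per kilobase of exon in 1 hr controls, 655 ± 40.7 in 1 hr LTP slices, 350.3 ± 30.1 in 3 hr controls and 646 ± 56.2 in 3 hr LTP slices. Fos alone made up 36.1% ± 2.18 of this sum in 1 hr controls and 51.3% ± 3.77 in 1 hr LTP slices. At 3 hr it made up 33.1% ± 2.72 in controls and 49.5% ± 2.2 in LTP slices. In the same order, Fosb made up 4.06%, 3.91%, 3.46% and 4.13%. Fosl2 made up 2.17%, 1.24%, 2.5% and 2.21%, and Fosl1 0.515%, 0.19%, 0.486% and 0.291%. Of the 4 Fos genes only Fos had a higher share in LTP slices at both times. The 4 Fos genes together made up 42.8% ± 1.82 of the sum in 1 hr controls and 56.6% ± 3.63 in 1 hr LTP slices. At 3 hr their share was 39.5% ± 2.73 in controls and 56.2% ± 1.26 in LTP slices, and the shares of LTP and control libraries did not overlap at either time. Per coding sequence the share was 48.6% ± 1.34 and 59.1% ± 3.01 in 1 hr control and LTP slices and 46.5% ± 2.34 and 60.7% ± 0.688 at 3 hr, again without overlap.

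**Figure D4:**
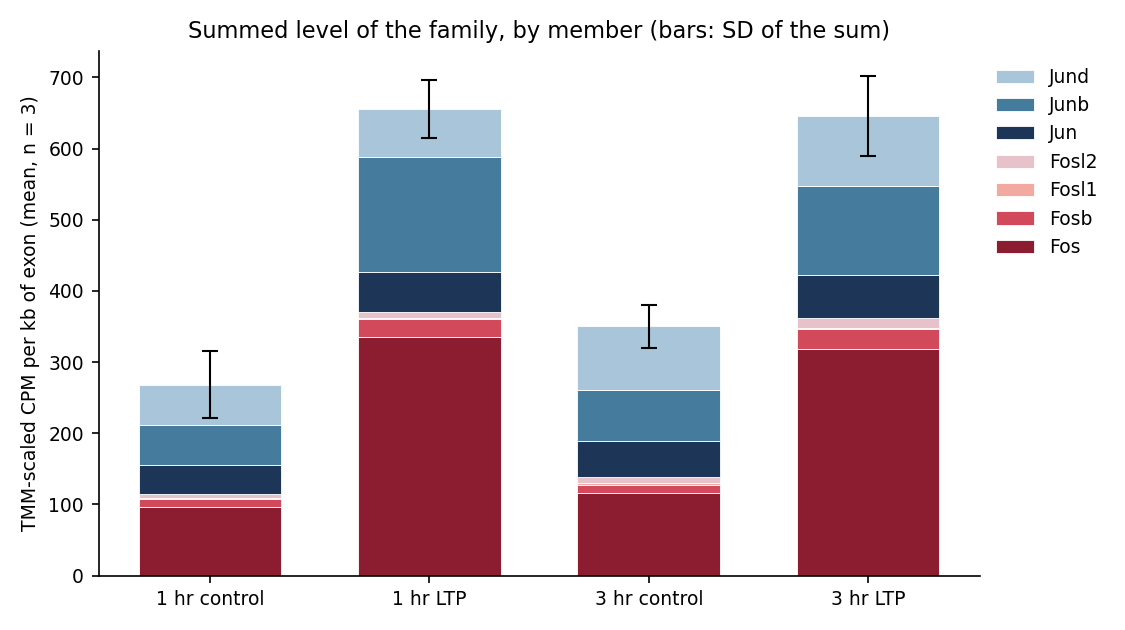
Mean level of each member in TMM-scaled CPM per kilobase of exon (stacked bars from 0, n = 3 libraries per group), with SD of the summed level. Fos makes up most of the difference in height between LTP and control bars at both times, and the sum in LTP slices is 655 at 1 hr and 646 at 3 hr.

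The control groups were compared to see how the members' level without LTP induction moved between the times. Fos, Fosl2, Jun, Junb and Jund were called higher in 3 hr than in 1 hr controls, by 0.40, 0.625, 0.405, 0.54 and 0.74 on the log2 scale (edgeR adjusted p = 0.0044, 7e-04, 0.0252, 0.0074 and 0.00115), and Fosb and Fosl1 were not called. Of 18584 genes tested, 16.1% were called higher and 16.8% lower in the same comparison, so changes between the times were common. Time, animals and collection cannot be told apart here. Between the LTP groups Fosl1 (0.60, edgeR adjusted p = 0.0586), Fosl2 (0.795, 4.74e-05) and Jund (0.52, 0.00327) were higher at 3 hr and Junb was lower (-0.38, 0.0191), beside 18.6% of genes higher and 17.3% lower. The Fosl1 call was lost without 3 hr LTP replicate 3 (0.20, edgeR adjusted p = 0.38), without 1 hr LTP replicate 2 (0.64, 0.1) and without 1 hr LTP replicate 3 (0.55, 0.139), and also with limma-voom (0.50, adjusted p = 0.119) and with the GC and length offsets described below (0.37, edgeR adjusted p = 0.187). The Junb call was lost without 1 hr LTP replicate 1 (-0.27, edgeR adjusted p = 0.112) or replicate 3 (-0.29, 0.101), and the Jun call between controls without 1 hr control replicate 3 (0.27, 0.233).

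The members are rich in G and C: the longest transcript had 51.9% GC in Fos, 53.1% in Fosl2, 55.5% in Jun, 56.0% in Fosb, 58.5% in Fosl1, 62.6% in Junb and 67.1% in Jund, beside a median of 47.7% over the genes of the tables. With offsets in each library for GC content and transcript length, an alternative chosen after seeing the data, the control difference of Jund moved from 0.74 to 0.01 (edgeR adjusted p = 0.916) and that of Junb from 0.54 to 0.07 (adjusted p = 0.602). That of Jun moved to 0.20 (edgeR adjusted p = 0.123), while Fos at 0.37 (adjusted p = 0.00524) and Fosl2 at 0.49 (adjusted p = 0.000129) stayed called. Between the LTP groups the same offsets took Jund from 0.52 to -0.025 (edgeR adjusted p = 0.752) and Junb from -0.38 to -0.74 (adjusted p = 9.12e-06), and Jund and Fosl1 lost their calls. The LTP effects at 1 hr became 1.95 for Fos, 1.72 for Junb and 1.41 for Fosb, and at 3 hr that of Junb moved from 0.80 to 0.91 and that of Jund from 0.15 to 0.32. Jund was then called at 1 hr (0.38, edgeR adjusted p = 0.00696) and 3 hr (0.32, adjusted p = 0.0083), Jun also at 3 hr (0.29, adjusted p = 0.045), and the Junb difference between the times was called (-0.80, adjusted p = 0.011). Fosl1 was not called at 1 hr or 3 hr with these offsets (-0.007 and 0.22, edgeR adjusted p = 0.996 and 0.573).

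**Figure D5:**
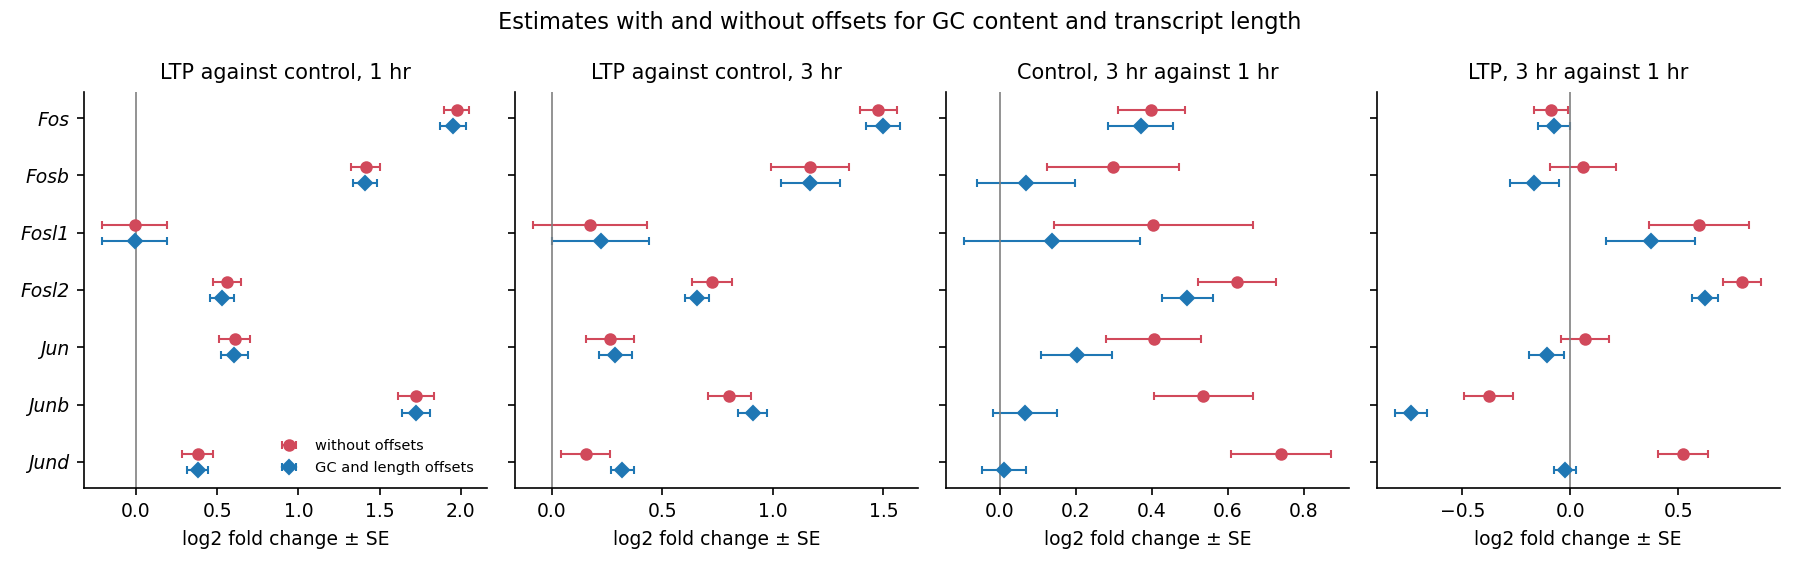
Log2 fold change ± SE (edgeR) of each member without (circles) and with (diamonds) offsets for GC content and transcript length, in the comparison of LTP with control slices at 1 hr and 3 hr and of 3 hr with 1 hr within controls and within LTP slices. The pairs of points nearly coincide at 1 hr, while those of Jund are 0.74 and 0.01 between the controls.

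Markers of cell types were read beside these comparisons. Of 63 marker genes in 8 lists, each detected in these libraries, Myh11 of the mural list was called lower at 1 hr (-0.68, edgeR adjusted p = 0.0465) and Syn1 of the neuron list was called higher at 3 hr (0.52, adjusted p = 0.0861). The summed neuron markers ran from 7009 to 7463 CPM in 1 hr controls and 6574 to 7507 in 1 hr LTP slices, and from 6426 to 6510 and 6053 to 7763 at 3 hr. The 7 dentate granule cell markers, although that region was trimmed, summed to 333 to 496 CPM over the 12 libraries. This sum does not measure how much of the region remained. Neither time point had a dentate marker called after LTP. Between the controls the microglia markers were lower at 3 hr in 6 of 8 genes (sums 316 to 342 CPM at 1 hr and 237 to 268 at 3 hr). The mural markers were likewise lower in 6 of 8 genes (sums 196 to 210.5 and 150 to 157 CPM), and endothelial markers in 4 of 8 genes (sums 131 to 143 and 109.6 to 115 CPM). Oligodendrocyte markers were higher in 5 of 8 genes (sums 5926 to 7426 and 7928 to 9595 CPM). Of the neuron markers 3 of 8 were called lower, Snap25 (-0.51), Gad2 (-0.41) and Syt1 (-0.30), and of the CA field markers 3 were higher and 2 lower of 8. The part of these shifts in the control differences of Jund, Junb, Jun, Fos and Fosl2 was not tested. After LTP at 1 hr the endothelial sums were 116 to 125 CPM and the mural sums 178 to 195, below the 1 hr controls without overlap, and the oligodendrocyte sums were 7178 to 8507. All 8 endothelial estimates at 1 hr were negative (-0.37 to -0.08) and all 8 oligodendrocyte estimates positive (0.01 to 0.275), though of these 3 lists only Myh11 was called. After LTP at 3 hr all 8 microglia estimates were negative (-0.22 to -0.02). The part of these shifts in the LTP effects was not tested. Between the LTP groups the microglia markers were again lower at 3 hr in 6 of 8 genes (sums 309.5 to 339 CPM at 1 hr and 219 to 244 at 3 hr), among them P2ry12 (-1.395) and Cx3cr1 (-0.75), and oligodendrocyte markers were higher in 4 of 8, Cnp, Mag, Olig1 and Mbp. Mural markers were lower in 3 and higher in 1 of 8, and endothelial markers lower in 2, Slco1a4 (-1.13) and Tek (-0.63), and higher in 3 of 8. Of the 8 neuron markers Gad2 (-0.44) and Snap25 (-0.39) were lower and Syn1 (0.67) was higher. Of the 8 CA field markers 3 were higher and 2 lower. The part of these shifts in the differences of Fosl1, Fosl2, Jund and Junb between the LTP groups was not tested.

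Other bZIP proteins can pair with Fos or Jun proteins. Of 23 such partner genes tested at 1 hr, Atf3, a stress-induced partner of Jun, was called higher (0.87, SE 0.119, edgeR adjusted p = 0.00137) and 0 were lower, with a median of -0.04, beside 0.778% of all genes higher and 0.0113% lower. At 3 hr Maff (0.76), Atf3 (0.73) and Mafk (0.44), of which the small Maf proteins Maff and Mafk lack an activation domain, were called higher (edgeR adjusted p = 0.00409, 0.0114 and 0.0318) of 23, and 0 were lower, with a median of 0.03, beside 5.07% and 1.53%. Atf3 had 36.8, 46.2 and 49.2 CPM in 1 hr controls and 81.0, 85.4 and 68.1 CPM in 1 hr LTP slices. A further list held genes that act on Fos and Jun, among them kinases, CREB and MEF2 family factors, CREB coactivators and serum response factor genes. Of 29 tested, 0 were called at 1 hr by edgeR in either direction, beside the 0.778% of all genes called higher and 0.0113% called lower. At an unadjusted p under 0.05 there were 2 of the 29, Crem (0.22) and Srf (0.21), beside 6.71% of all genes. At 3 hr Crem, which encodes CREM and its repressor form ICER, was called higher (0.57, edgeR adjusted p = 0.0216) and 0 were lower, beside 5.07% of all genes higher and 1.53% lower.

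Of 26 genes described as AP-1 targets, 24 could be tested at 1 hr, where Ptgs2 (1.03, edgeR adjusted p = 1.29e-05), which encodes the cyclooxygenase COX-2, and Il6 (1.32, adjusted p = 0.00363), which encodes a cytokine, were called higher and 0 lower, beside 0.778% of all genes higher and 0.0113% lower. At 3 hr Il6 (1.31), Ptgs2 (0.64) and Tac1 (0.655), the precursor of substance P, were called higher (edgeR adjusted p = 0.0022, 0.00361 and 0.025). The matrix metalloproteinase genes Mmp3 (-1.74) and Mmp13 (-1.08) were called lower (adjusted p = 0.0121 and 0.04). These 3 higher and 2 lower of 26 stand beside 5.07% of all genes higher and 1.53% lower. Il6 had 9.02, 10.6 and 7.24 CPM in 3 hr controls and 21.4, 23.5 and 21.1 CPM in 3 hr LTP slices. Mmp3 was low throughout, with 0.865, 1.37 and 1.28 CPM in 3 hr controls and 0.341, 0.308 and 0.396 CPM in 3 hr LTP slices. The list median was 0.09 at 1 hr and 0.02 at 3 hr.

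A list of 19 other immediate early transcription factor genes shares Atf3 and Maff with the bZIP partners. Like the other lists, it was chosen with earlier results of these data known. Most of the 19 genes were called higher. At 1 hr 14 were called higher and 1, Klf10 (-0.36, edgeR adjusted p = 0.0422), lower, beside 0.778% and 0.0113% of all genes, with a list median of 0.87. Those with the smallest p were Egr2 (2.47), Npas4 (2.60), Nr4a1 (1.70), Egr4 (2.28), Egr1 (1.31), Nr4a2 (1.025), Csrnp1 (0.75) and Klf4 (0.90), all at an edgeR adjusted p of at most 0.000276. At 3 hr 14 were again called higher and Klf10 lower (-0.53, edgeR adjusted p = 0.00953), with a median of 0.73, beside 5.07% and 1.53% of all genes, among them Egr2 (1.40), Klf4 (1.44), Maff (0.76), Nr4a2 (0.96), Npas4 (1.43), Nr4a1 (1.09) and Atf3 (0.73). The estimated effects of Egr2 and Npas4 were thus smaller at 3 hr, and for Egr2 the difference was called (-1.06, edgeR adjusted p = 0.0794). Egr2 had 10.8, 12.3 and 11.6 CPM in 1 hr controls, 61.3, 62.7 and 60.8 in 1 hr LTP slices, 10.9, 14.3 and 11.8 in 3 hr controls and 28.7, 39.2 and 28.9 in 3 hr LTP slices.

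Likeness of pattern was measured as the Pearson correlation of log2(CPM + 0.5) over the 12 libraries, against 14184 genes that averaged at least 1 CPM, and is a description of libraries that share groups, depth and base composition. The genes most like Fos were Arc (r = 0.991), whose product regulates AMPA receptor trafficking and whose rise was used to select the samples, Gadd45g (0.985), Ppp1r15a (0.984), Arl4d (0.974) and Nr4a2 (0.971). Arc had 151, 221 and 131 CPM in 1 hr controls and 592, 538 and 533 CPM in 1 hr LTP slices, and at 3 hr 206.5, 219 and 212 CPM in controls and 504, 511 and 541 CPM in LTP slices. By Spearman correlation 2 of these 5 genes remained among the first 5. The gene most like Fosb was Nr4a1 (0.979), that most like Junb was Arl4d (0.972), and that most like Jun was Egr3 (0.93). Fosl2 was most like Sik2 (0.974), Jund most like Vgf (0.984) and Fosl1 most like Nfic (0.947). Within the family Fos was most like Fosb and Junb (0.955 each), and its correlation was 0.362 with Jund and 0.054 with Fosl1.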

How the data were processed

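The authors deposited raw counts per gene in 1 table per time point, made from stranded, ribosome-depleted total RNA libraries by alignment with STAR to GRCm38/mm10 and counting in Bioconductor. The annotation release and the use of strand in counting are not given in the sources used here. Symbols, positions and exonic lengths came from GENCODE M21, to which 40217 of 41091 IDs matched. Counts were tested with edgeR 4.0.16 (filterByExpr, TMM, quasi-likelihood F test) in R 4.3.3 with Benjamini-Hochberg adjustment over all genes tested. Each time point was fitted alone, with 5 libraries at 1 hr (1 hr control replicate 2, the study's outlier, left out) and 6 at 3 hr, and 11 libraries entered the 4-group model. The thresholds (adjusted p below 0.1, change above 1.2-fold) follow the study's methods, and the interaction had no fold minimum. SE and 95% intervals are of log2 fold changes. The fits were tested on simulated data.

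The members and lists were chosen with earlier results of these data known. All members, up to 8 called genes of each list by smallest p, and the likest genes were named. Correlations of deviations between paired libraries were -0.01, -0.24 and 0.078 at 1 hr and 0.067, 0.005 and 0.293 at 3 hr, where the pairing comes from the labels, which number the animals. Alternatives were DESeq2 1.42.0, voom of limma 3.58.1, other scalings and filters, the animal as a replicate block, leaving out each library, and, added after seeing the data, offsets for GC content and length (smoothing splines) and coding length in place of exonic length.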

Additional observations from a re-analysis of the deposited data

Results flagged for a closer look

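The library that the study set aside, 1 hr control replicate 2, took no part in the main tests, and in it each of the 7 members was above both fitted 1 hr controls. It had 279 CPM of Fos, 84.0 of Fosb, 3.29 of Fosl1, 59.3 of Fosl2, 148 of Jun, 164 of Junb and 108.5 of Jund. With this library included, the 1 hr LTP effects of Fos, Fosb, Fosl2, Jun and Junb stayed called by edgeR, beside 144 of 17419 genes tested. Their estimates were smaller than in the main test. They were 1.80 for Fos, 1.23 for Fosb, 0.51 for Fosl2, 1.52 for Junb and 0.49 for Jun (edgeR adjusted p = 0.0572 for Jun). Jund was at 0.26 and not called (edgeR adjusted p = 0.526). The cause of the higher levels in this library was not tested.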

How the results depend on the processing

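The count of members called at 1 hr was 5 and ran from 3 to 6 when libraries were left out 1 at a time, with 3 without 1 hr control replicate 3, while 69 to 344 of all genes were called. At 3 hr the count of 4 ran from 4 to 5, beside 228 to 2170 of all genes. The count of members with a different effect at the 2 times was 0 and ran from 0 to 1 with libraries left out, and it was 2 with DESeq2, 2 with no filter beyond 1 count and 1 with the GC and length offsets, beside 1 to 67, 58, 102 and 29 of all genes. The counts between controls (5) and between LTP groups (4) ran from 4 to 7 and from 2 to 4 with libraries left out, and both were 2 with the GC and length offsets, whose calls differ as described above and which called 4671 and 4952 of all genes. The cause was not tested. With the longest transcript as length, the share of the 4 Fos genes in 1 hr controls was 44.6%. With coding length it was 48.6% in 1 hr controls, 46.5% in 3 hr controls and 60.7% in 3 hr LTP slices. With the animal as a replicate block the counts were 5 at 1 hr (all 6 libraries), 4 at 3 hr and 0 for the difference, and no call changed, although Jun at 3 hr passed the p threshold. Of all genes, 112, 1662 and 7 were called. Together with the GC and length offsets, the replicate block gave 6 at each time, beside 264 and 1759 of all genes.

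The sign of Fosl1 at 1 hr reversed without 1 hr control replicate 1 (0.05) or 1 hr LTP replicate 3 (0.07), within a range from -0.071 to 0.071 with libraries left out. Without 3 hr LTP replicate 3, reversals were seen in Fosl1 at 3 hr (range -0.23 to 0.39), in the Fosl1 difference (-0.23 to 0.39) and between the LTP groups in Fosb (-0.19 to 0.235) and Jun (-0.05 to 0.14). With the GC and length offsets, Fosb (-0.17), Jun (-0.11) and Jund (-0.025) reversed between the LTP groups. These values were not called either way, except Jund, which was called without offsets. The Spearman measure kept 2 of the 5 genes most like Fos. Of 590 comparisons of a member or its likest genes with an alternative, 543 kept direction and call, 23 gained a call, 14 lost it and 9 reversed. Fosl1 had 96 to 221 counts per library, and each fitted group held 2 or 3 libraries.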
